A study of Mus musculus with 18 samples.

Results

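Conventional dendritic cells are the antigen-presenting cells that take up proteins in a tissue, load their peptides on MHC molecules and show them to T cells. They come in a pair of main types. Type 1 cells (cDC1), which depend on the transcription factors Batf3 and Irf8 and carry the chemokine receptor Xcr1 and the dead-cell receptor Clec9a, are specialised in presenting captured antigen on MHC class I. Type 2 cells (cDC2), which carry Sirpa and lectins such as Cd209a and Mgl2, present mainly on MHC class II, and both types can turn into mature, migrating cells with Ccr7 and Fscn1. Here the conventional dendritic cells were picked from Drop-seq data, in which a droplet pairs each cell with a barcoded bead and each transcript is counted once by a unique molecular identifier (UMI). A cell was taken if it held 3 or more UMIs of the MHC class II genes H2-Aa, H2-Ab1 and H2-Eb1 together, at least 2 of the 8 genes Xcr1, Cd209a, Ifi205, Naaa, Flt3, Dnase1l3, Tbc1d4 and Batf3, fewer than 3 UMIs of the macrophage complement genes C1qa, C1qb and C1qc, and no Cd79a, a B cell gene. This gate held 231 of 19761 kept cells, or 1.17%, from 16 of the 18 libraries. The measured levels of these genes chose the cells, so those levels are given below as a description only.

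The cells came from lungs, spleens and implanted biomaterial scaffolds, porous implants that host cells enter, of female BALB/cJ mice. Tumour-bearing mice carried a mammary tumour grown from 2000000 injected 4T1-tdTomato-luc2 cells, a mouse breast cancer line with a fluorescent and a luciferase marker, and healthy mice of the same strain had been given none. Tissues were taken 7, 14 or 21 days after injection, at an age of 9, 10 or 11 weeks, and the series asks about immune phenotypes in the early metastatic niche of the lung. Each tissue, status and day gave 1 library. Whether a library pools animals is not given in the sources used here, and p-values measure the spread between libraries, which may be partly technical.

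Library totals lay between 292765 and 4530115 UMIs, and the kept cells per library between 27 and 2598. The gated cells had a median of 2022 UMIs and 986 genes per cell, against 957 UMIs over all kept cells, and held 696672 UMIs in all. Cell barcodes found in more than 1 library numbered 279 of 5684 at day 7, 103 of 8932 at day 14 and 1046 of 7545 at day 21. A shared barcode stayed only where its UMIs were at least 5 times those of the next library, which left 235 cells of healthy lung and 27 of healthy spleen at day 21. With every shared barcode kept in place the gate held 236 cells.

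H2-Aa was detected in 99.1% of the 231 cells, Naaa, a lysosomal acid amidase of cDC1, in 71.0%, and Ifi205, an interferon-inducible gene, in 54.5%. Batf3 was detected in 41.1%, Tbc1d4 in 29.0%, Xcr1 in 26.4%, Cd209a in 23.4%, Flt3, the growth factor receptor of the lineage, in 19.9% and Dnase1l3, a secreted DNase, in 19.0%. Of the cells inside the gate 122 held 2 of the 8 genes, 53 held 3 and 56 held 4 or more. Just outside it lay 335 cells with 1 of the 8 genes, 9 with 2 class II UMIs, 55 with 3 or more C1q UMIs and 6 with Cd79a. The 335 cells with 1 gene had a median of 12 class II UMIs, below the median of 28 in the 122 cells with 2 genes.

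Genes that the gate did not use bore on the label unevenly. Cst3, an inhibitor of cysteine proteases that dendritic cells make in large amounts, was detected in 97.4% of the gated cells and in 16.0% of 1613 T cells, but also in 96.5% of macrophages with C1q. Those T cells, gated on 2 or more UMIs of T cell receptor and CD3 genes, serve below as the level of free RNA in the droplets; their median depth was 891 UMIs. Irf8 was detected in 51.5% of the gated cells against 5.52% of T cells. Zbtb46, a transcription factor of the lineage, was detected in only 12 gated cells. Markers of other cells were present too. In 42 gated cells (18.2%) 2 or more of 9 macrophage genes (among them Adgre1, Mrc1, Fcgr1, Mertk, Ms4a7, Trem2, Gpnmb and Spp1) were detected, and these made up 29.8% of the scaffold cells, 18.8% of the lung cells and 2.35% of the spleen cells. Those 9 genes are a narrow set. On the whole list of 15 macrophage markers 55.0% of the gated cells held 2 or more, as did 7.13% of T cells, and the summed level was 14620 CPM (UMIs scaled to the same total) against 57390 in macrophages with C1q. Monocyte markers, 2 or more of 10, were detected in 81.4% of the cells classed below as cDC2-like and in 24.5% of those classed as cDC1-like, against 39.6% of macrophages and 18.4% of T cells. The label holds least firmly for the cDC2-like cells and for the 42 cells. The gene comparisons of tissues and status over all gated cells were also taken without the 42, which left 1 lung library.

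Sorted by whichever of the cDC1, cDC2 and mature marker lists had most detected genes, 98 cells were cDC1-like, 102 cDC2-like and 15 mature-like, and 16 stayed undecided. The classes are ranges on marker counts, and 31 of the sorted cells had a margin of a single gene. The marker lists overlapped between the classes: 80.4% of cDC2-like cells held 2 or more cDC1 markers, and 40.8% of cDC1-like cells held 2 or more cDC2 markers. The cDC1 list holds the gate genes Xcr1, Naaa, Batf3 and Ifi205, while the cDC2 list holds only Cd209a of them. All cells were thus chosen partly on cDC1 markers, so both percentages are a description only. The gate's part in them was not tested. Of the 231 cells 70 held Xcr1 or Clec9a alone, 63 held Cd209a, Mgl2 or Clec10a alone, 2 held genes of both sets and 96 held neither; Xcr1 and Cd209a were also gate genes. Xcr1, in the class by its list, was detected in 61.2% of the cDC1-like cells, in no cDC2-like cell and in no T cell.

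The genes outside the marker lists give each class a character of its own, as a description, since the same cells were sorted. The cDC1-like cells held Sept3 in 37.8%, against 6.86% of cDC2-like cells and no T cell. Cd207 (langerin, a C-type lectin) was detected in 19.4% of cDC1-like cells and in no cell of the other classes. Btla, an inhibitory receptor, was detected in 35.7% against 2.94%, and Cd24a in 44.9% against 11.8%. The cDC2-like cells held the lectin receptor Clec4a3 in 65.7% against 3.06%, Ms4a6d in 52.9% against 3.06%, the chemokine Ccl9 in 48.0% against 5.10% and the antiviral membrane protein Ifitm3 in 83.3% against 33.7%. The 15 mature-like cells held Ccr7 and Fscn1, an actin-bundling protein of migrating dendritic cells, in 7 cells each. Rogdi was detected in 66.7% of them and Chka in 53.3%, against at most 13.7% in the other classes.

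**Figure D1:**
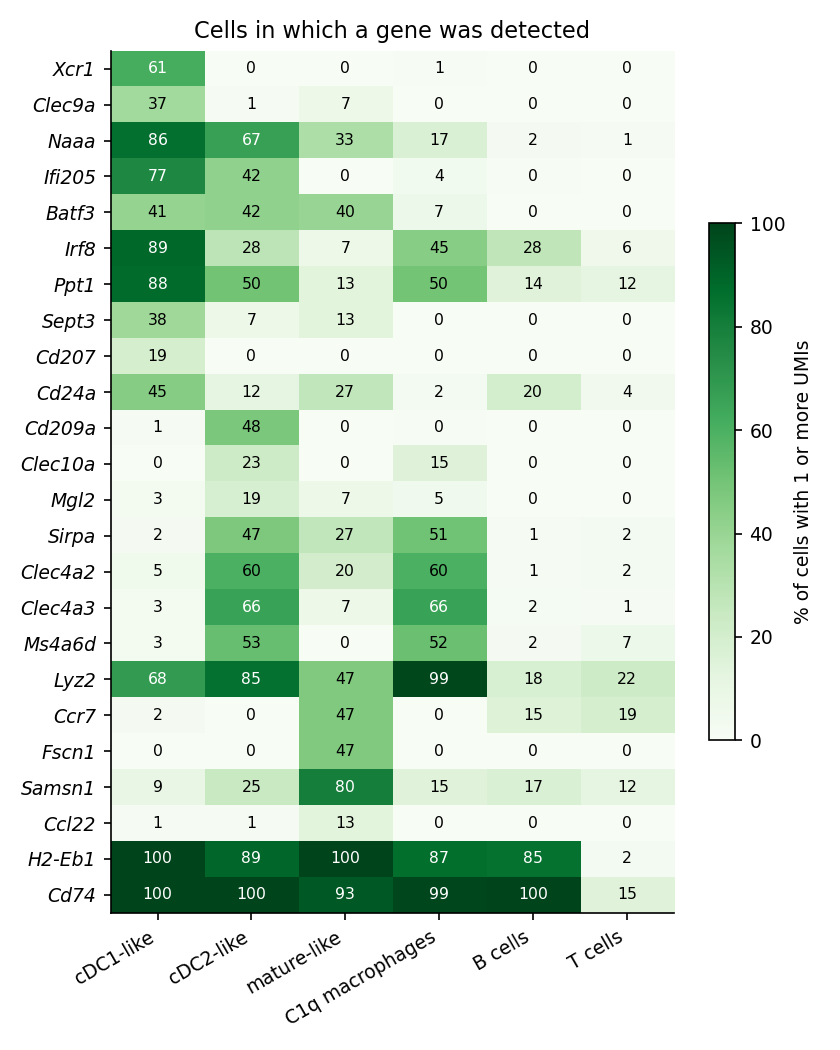
Percentage of cells with 1 or more UMIs of each gene (rows) in the 3 dendritic cell classes, in C1q-positive macrophages, B cells and T cells (columns). Xcr1 reaches 61.2% in the cDC1-like column and under 1% in every other column, and Fscn1 is detected in 46.7% of mature-like cells.

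Counted on all UMIs, the share of conventional dendritic cells was on average lowest in lung and highest in healthy scaffold. Healthy scaffolds held 2.54%, 1.65% and 2.58% at days 7, 14 and 21 (mean 2.26 ± 0.525, SD, n = 3). Tumour-bearing scaffolds held 1.35%, 1.54% and 0.382% (1.09 ± 0.621, SD, n = 3). All 3 tumour-bearing scaffolds lay below all 3 healthy ones, yet 3 against 3 libraries cannot give an exact permutation p below 0.1, and the 2-sided p was 0.1. With each cell thinned to 500 UMIs the groups overlapped: healthy scaffolds held 0.495%, 1.13% and 0.817% and tumour-bearing ones 0.585%, 0.886% and 0.0863% (exact permutation p = 0.5).

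Healthy spleens held 1.81% and 1.15% at days 7 and 14, and no gated cell among 27 at day 21, which allows a share of up to 11.1%. Tumour-bearing spleens held 1.96%, 1.62% and 0.273%. Healthy lungs held 0.341%, 1.31% and 0.426%, and tumour-bearing lungs held 1.08%, 0.537% and none of 2353 cells at day 21, which allows up to 0.127%. The ranges of healthy and tumour-bearing libraries overlapped in lung and spleen. At day 21 the 3 tumour-bearing libraries together held 9 gated cells; neutrophil calprotectin genes (S100a8 and S100a9) took 5.95% of all UMIs in that scaffold, 18.0% in that lung and 17.9% in that spleen, against at most 1.09% in the healthy libraries. Among cells with calprotectin genes under 3% of UMIs the log2 ratio of tumour to healthy shares was 0.13 in lung, 0.27 in spleen and -0.80 in scaffold, where over all kept cells it was -1.57, -0.69 and -1.21.

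Over the 9 tumour and healthy pairs of a tissue and day, the log2 ratio of shares was -1.15 on average (SD 1.94), with 3 of 9 pairs higher in tumour, and did not pass the 2-sided exact sign-flip permutation test (p = 0.117, adjusted p = 0.156 by Benjamini-Hochberg over 4 tests). It was 0.12 when the share was taken of cells with 3 or more class II UMIs. Thinning each cell to 500 UMIs, which makes detection comparable but leaves 82 gated cells, gave -1.62, with 2 of 9 pairs higher in tumour, with an exact permutation p of 0.0273. Its adjusted p was 0.0417 over the same 4 tests and 0.109 when adjusted with the 3 tests within single tissues, so that the call depends on the family. Counted on all UMIs, without thinning, the ratio was -0.42 once the day 21 libraries of healthy lung and spleen and their pairs were left out.

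Scaffolds held a larger share than lungs in 6 of 6 pairs of the same status and day, by 1.84 on the log2 scale (SD 1.52). The exact sign-flip p was 0.03125, the smallest that 6 pairs can give, and the adjusted p of 0.125 did not pass. At 500 UMIs per cell the difference was 1.42 in 6 of 6 pairs and passed (adjusted p = 0.0417, exact permutation). Its healthy pair of day 21 rests on 0 gated cells among 78 of lung. Scaffold and spleen differed by 0.22 (SD 0.424, 4 of 6 pairs higher in scaffold, exact permutation p = 0.375), which turned to -0.75 at 500 UMIs. Lung against spleen gave -1.61, with 1 of 6 pairs higher in lung, an exact permutation p of 0.0625 and an adjusted p of 0.125.

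**Figure D2:**
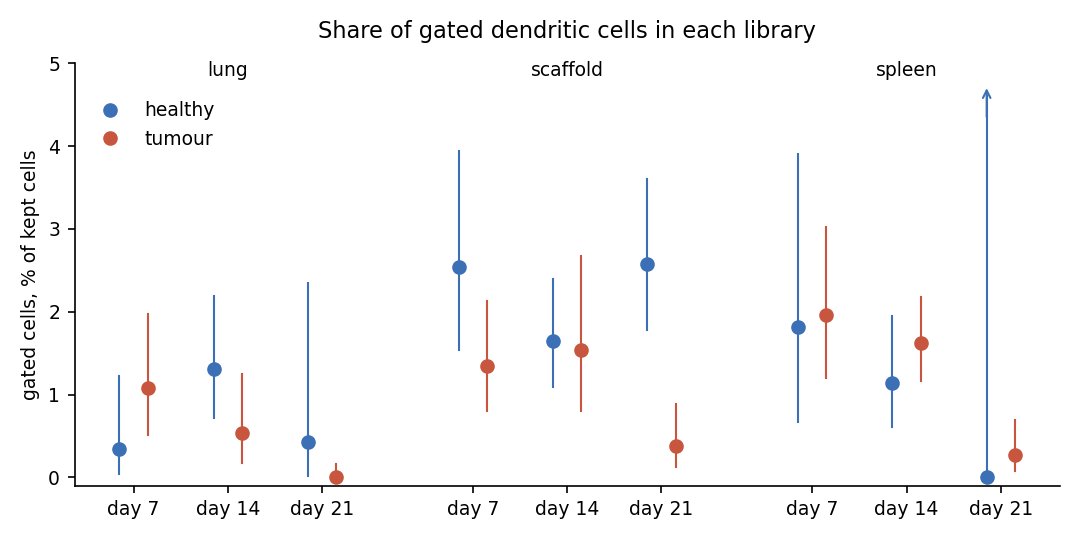
Gated cells as a percentage of kept cells (vertical axis) in each of the 18 libraries (horizontal axis), with exact binomial 95% intervals that cover counting error only. The arrow marks the interval of the healthy spleen at day 21, which reaches 12.8%; tumour-bearing scaffolds lie at 0.382% to 1.54% and healthy ones at 1.65% to 2.58%.

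Both main types were found in all 3 tissues. cDC1-like cells made up 48 of 114 scaffold cells (42.1%), 42 of 85 spleen cells (49.4%) and 8 of 32 lung cells. cDC2-like cells made up 57, 26 and 19 of them, and mature-like cells 4, 9 and 2. Over 3 pairs of libraries with 10 or more gated cells the cDC1-like share was 1.86 percentage points lower in scaffold than in spleen (SD 10.5, exact permutation p = 0.75, smallest possible 0.25). In 3 tumour and healthy pairs it was 8.26 points lower in tumour (SD 14.6, exact permutation p = 0.5). With 3 pairs neither difference could pass, whatever its size.

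**Figure D3:**
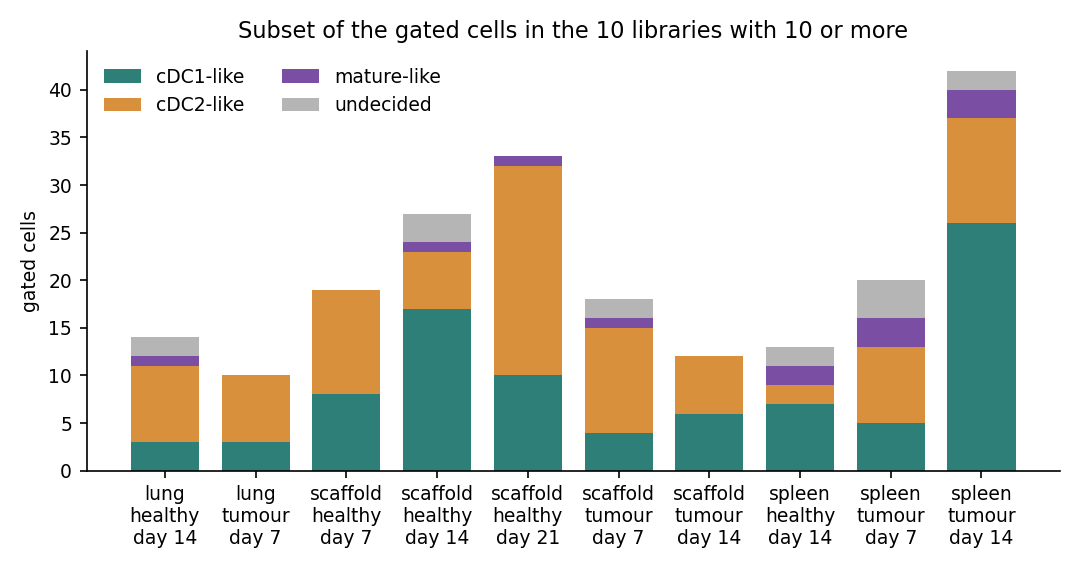
Number of gated cells (vertical axis) of each class, stacked, in the 10 libraries with 10 or more gated cells (horizontal axis). Both cDC1-like and cDC2-like cells are present in all 10, and the largest number of cells is in the tumour-bearing spleen of day 14 with 42 cells.

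Genes were compared on the UMIs summed over the gated cells of a library, in the 10 libraries with 10 or more such cells: 2 of lung (healthy day 14, tumour day 7), 5 of scaffold (healthy days 7, 14 and 21, tumour days 7 and 14) and 3 of spleen (healthy day 14, tumour days 7 and 14). A single edgeR quasi-likelihood fit with terms for tissue, day and status tested 1955 genes. The healthy scaffold of day 21 was the only fitted library of its day. Its day term fits it exactly, so its levels, listed below, do not enter the fitted differences of tissue or status. Levels are given as CPM, counts scaled to the same total per library, and compare libraries for 1 gene, not genes with each other. The scaffold cells differed most from the spleen cells. Of all genes tested 4.25% were called at an adjusted p under 0.05, 61 higher (3.12%) and 22 lower (1.13%) in scaffold, and the median over all genes was 0.08 (log2). Of the 82 called genes that the gate did not use, 55 had library values that did not overlap between the tissues. The calls rest on these same values, and genes without overlap were not counted over all 1955, so the 55 are a description and no further support. Leaving out 1 library left 27 (tumour-bearing spleen of day 14 or healthy scaffold of day 21) to 114 calls (healthy scaffold of day 14), and DESeq2 called 25. Without the healthy scaffold of day 21 only 878 genes were tested, with 59 of the 83 among them. Without the day in the fit edgeR called 45 genes, 44 of them among the 83. The 22 lower genes include the neutrophil granule genes Ngp, Camp and Ltf, which were high only in the tumour-bearing spleen of day 14. Among the gene lists, macrophage markers, lectin and scavenger receptors, and cytokines and chemokines had members that rose and none that fell, while class II and mature dendritic cell genes had members in both directions.

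Lysosomal proteases cut the invariant chain and antigens for MHC class II. Ctss (cathepsin S, chr3:95526786-95556405, GRCm38) stood at 6728, 1730 and 9199 CPM in the healthy scaffolds of days 7, 14 and 21, at 9464 and 6408 in the tumour-bearing scaffolds of days 7 and 14, and at 777, 2208 and 1148 in the spleens (healthy day 14, tumour days 7 and 14). All but the healthy scaffold of day 14 lay above every spleen. Its log2 difference was 2.15 (SE 0.395, edgeR adjusted p = 0.00156). Ctsl (cathepsin L, chr13:64361890-64370772) stood at 326, 238 and 1185 CPM in the healthy scaffolds, at 663 and 1021 in the tumour-bearing ones, and at 0, 13.9 and 12.9 in the spleens. The groups did not overlap, and the log2 difference was 5.78 (SE 0.762, edgeR adjusted p = 3.43e-05); with 289 UMIs in scaffold and 2 in spleen, the ratio was 68.8 with a counting interval of 18.9 to 570.4.

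The class II list as a whole did not move one way. Of its 12 tested members outside the gate 2 rose (Ctss and Ctsl), 1 fell (H2-Oa) and 9 did not pass, with a median of -0.08 against 0.08 over all genes. Cd74, the invariant chain, ranged from 8080 to 32331 CPM in scaffold and from 11954 to 21623 in spleen, and differed by -0.04 (SE 0.397, edgeR adjusted p = 0.983). H2-Oa, a subunit of H2-O that restrains peptide loading, stood at 453, 97.2 and 194 CPM in the spleens and at 0 to 14.1 in the 5 scaffolds. The groups did not overlap, and it fell by 5.06 (SE 1.30, edgeR adjusted p = 0.0249). Among all gated cells it was detected in 24 of 85 from spleen and 3 of 114 from scaffold, and in 1.05% of T cells. Of 14 MHC class I and cross-presentation genes none passed edgeR's threshold (median -0.63).

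Of 9 chemokines and cytokines tested 4 rose in scaffold and none fell (median 1.23). Cxcl2, a chemokine that attracts neutrophils, was at 0 in all 3 spleens and at 201, 67.9, 970, 1199 and 340 CPM in the scaffolds (healthy days 7, 14, 21, then tumour days 7 and 14). Its 255 UMIs came from 25 cells, and against a floor of 3 counts over the spleens it was at least 40.4-fold higher (edgeR adjusted p = 0.000184). Il1rn, the antagonist of the interleukin 1 receptor, was at 0 in the spleens and at 201, 0, 646, 296 and 425 CPM in the scaffolds, at least 23.3-fold higher (edgeR adjusted p = 0.00128). Only the healthy scaffold of day 14 met the spleen values.

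The neighbouring genes for the chemokines Ccl6 and Ccl9, which draw monocytes and other myeloid cells, moved together. Ccl6 stood at 2358, 746, 1767, 1608 and 907 CPM in the scaffolds and at 32.4, 444 and 64.5 in the spleens, and rose by 2.66 (SE 0.565, edgeR adjusted p = 0.00656). Ccl9 stood at 882, 271, 1048, 592 and 482 CPM in the scaffolds and at 0, 194 and 25.8 in the spleens, and rose by 2.55 (SE 0.712, edgeR adjusted p = 0.0409). Neither gene's scaffold values overlapped those of spleen. T cells of the same tissues did not show this for Ccl6 (log2 -0.32, edgeR adjusted p = 0.918).

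The 250 bases before the start of these 3 chemokine genes are shown because they rose together, with matches to the kappa B consensus or an AP-1 motif (TGANTCA) on either strand in capitals. Sequences are from RefSeq for GRCm38.p6 and run 5′ to 3′ on the strand of the gene: Cxcl2 is chr5:90903649-90903898 on the plus strand, Ccl6 is chr11:83593088-83593337 and Ccl9 is chr11:83578637-83578886, both on the minus strand.
Cxcl2: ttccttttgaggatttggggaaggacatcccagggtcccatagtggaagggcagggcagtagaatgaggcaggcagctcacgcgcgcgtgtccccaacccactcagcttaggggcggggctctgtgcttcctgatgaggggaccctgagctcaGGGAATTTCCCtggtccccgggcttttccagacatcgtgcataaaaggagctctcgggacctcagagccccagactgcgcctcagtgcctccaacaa
Ccl6: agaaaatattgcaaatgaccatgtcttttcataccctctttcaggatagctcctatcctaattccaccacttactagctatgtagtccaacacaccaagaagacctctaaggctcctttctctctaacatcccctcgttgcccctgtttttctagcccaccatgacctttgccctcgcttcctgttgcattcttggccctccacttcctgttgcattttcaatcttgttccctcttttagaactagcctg
Ccl9: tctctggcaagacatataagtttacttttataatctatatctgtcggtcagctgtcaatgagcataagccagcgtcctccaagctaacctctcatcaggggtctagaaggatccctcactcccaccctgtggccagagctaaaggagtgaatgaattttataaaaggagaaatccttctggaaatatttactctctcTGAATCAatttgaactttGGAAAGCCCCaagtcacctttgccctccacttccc
The Cxcl2 window holds 2 kappa B matches that overlap, beginning 97 and 96 bases before the start. Ccl9 holds 1 kappa B match beginning 35 and 1 AP-1 match beginning 53 bases before the start, and Ccl6 holds neither. Of 32851 promoter windows of this length 7.25% held the kappa B motif and 6.75% the AP-1 motif. A match describes the letters and shows no binding.

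Lpl (lipoprotein lipase, which frees fatty acids from lipoproteins, chr8:68880555-68906932) stood at 4026, 746, 2449, 1523 and 2779 CPM in the scaffolds and at 0, 0 and 25.8 in the spleens. The groups did not overlap, and 989 UMIs in 41 cells against 2 UMIs in 1 cell gave a ratio of 235 (counting interval 65.0 to 1945; log2 7.37, SE 0.864, edgeR adjusted p = 2.26e-05). Spp1 (osteopontin) was at 0 in every spleen and at 556, 0, 424, 1636 and 2183 CPM in the scaffolds, at least 49.2-fold higher (edgeR adjusted p = 3.17e-05). T cells of the scaffolds held 84.5 to 715 CPM of Spp1 and 0 to 204 CPM of Lpl, and both genes were called higher there too, as was Cxcl2. Of the 44 called genes that could be tested in T cells 17 were called the same way there. Lpl in gated cells lay above Lpl in T cells in each of the 5 scaffolds. Spp1 did so in 4 of them, while in the healthy scaffold of day 14 gated cells held none and T cells 395 CPM.

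Of 10 macrophage markers tested 6 rose in scaffold and none fell (median 3.94 against 0.08 over all genes), among them Spp1, Gpnmb, Mrc1, Trem2 and Apoe. Mrc1, the mannose receptor, stood at 198 to 450 CPM in the 5 scaffolds and at 0, 0 and 12.9 in the spleens. Trem2, a lipid receptor, stood at 33.9 to 431 CPM against 0, 13.9 and 0. Neither overlapped, with log2 differences of 5.17 and 4.40 (edgeR adjusted p = 0.00119 and 0.0176). Summed over the whole list of macrophage markers, the level ranged from 7226 to 26130 CPM in scaffold, from 11020 to 13430 in lung and from 453 to 7261 in spleen; the defining genes C1qa, C1qb and C1qc gave 10, 9 and 6 UMIs in all gated cells, which the gate capped.

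C-type lectin and scavenger receptors rose in 5 of 13 tested members and fell in none (median 2.83). Mgl2, a lectin of cDC2, was at 0 in the spleens and at 86.3, 509, 129, 155 and 113 CPM in the scaffolds, without overlap and at least 9.04-fold higher (edgeR adjusted p = 0.00172). Clec4n (dectin-2) rose by 3.08 and Clec4d by a fitted 6.12 that is no bound, since the spleens held none of its UMIs. Cd36, counted among both the cDC1 markers and the scavenger receptors, rose by 2.95, and Cd14, the lipopolysaccharide co-receptor, by 2.93.

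Among genes of mature dendritic cells more fell than rose. Of 14 tested 3 fell, 1 rose (Cd63, a tetraspanin of lysosomes) and 10 did not pass, with a median of -1.88. Samsn1 stood at 324, 444 and 206 CPM in the spleens and at 76.7, 33.9, 43.1, 141 and 85.1 in the scaffolds. The groups did not overlap, and it fell by 1.90 (SE 0.528, edgeR adjusted p = 0.0409). The protease inhibitors Serpinb6b and Serpinb9 fell by 4.39 and 4.64 (edgeR adjusted p = 0.0484 for both). Ltb (lymphotoxin beta) stood at 324, 153 and 361 CPM in the spleens and at 0 to 50.3 in the scaffolds and fell by 3.31 (SE 0.792, edgeR adjusted p = 0.0171). Mature-like cells were 9 of 85 in spleen and 4 of 114 in scaffold; their part in these values was not tested.

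Several groups did not part scaffold from spleen in edgeR's fit. None of 10 transcription factors of the lineage passed, and Irf8 differed by -0.20 (SE 0.479, edgeR adjusted p = 0.930). None of 15 type I interferon genes passed (median 0.55), although Ifi27l2a was higher by 1.59 (SE 0.475) at an edgeR adjusted p of 0.0628. None of 8 glycolysis genes passed, with all 8 above 0 (median 1.16), none of 7 co-stimulatory ligands (median -1.08) and none of 9 cell cycle genes (median -0.56).

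**Figure D4:**
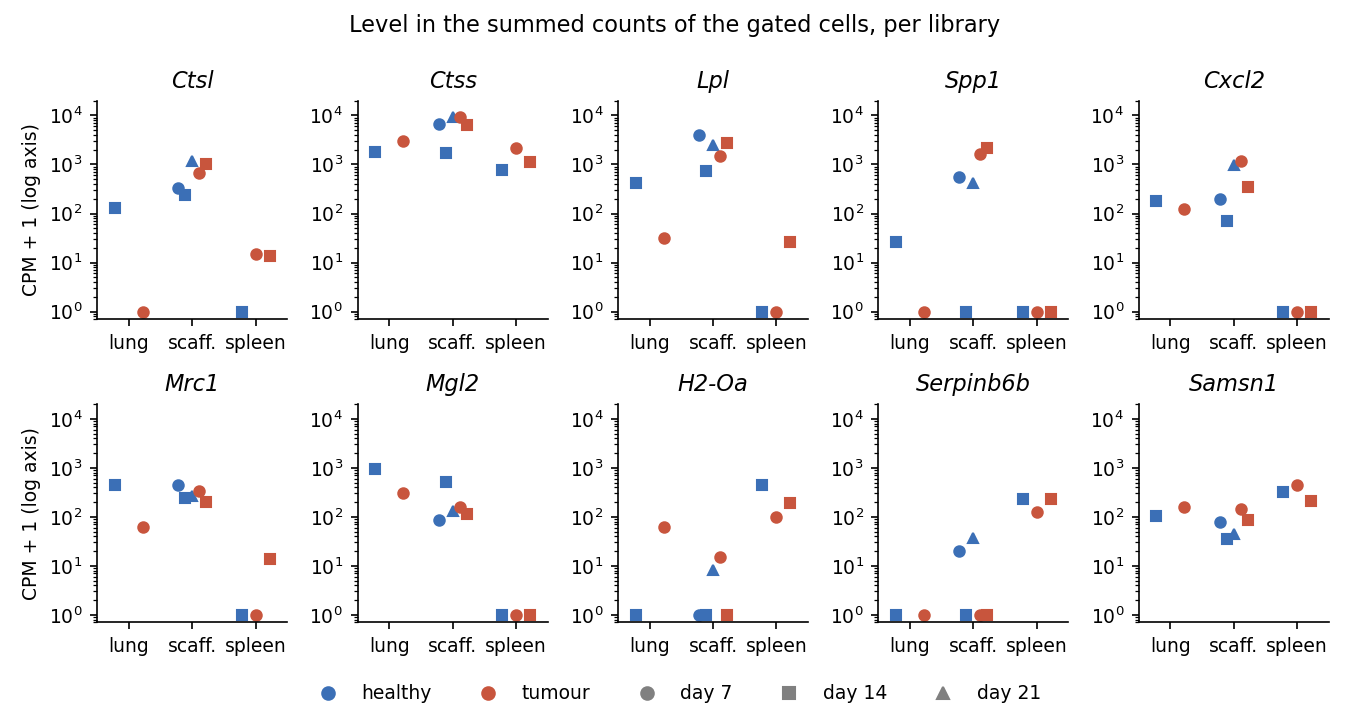
CPM + 1 on a log axis (vertical) for selected genes in the summed gated cells of each of the 10 libraries, grouped by tissue (horizontal); each point is 1 library. Ctsl, Lpl and Mgl2 lie higher in all 5 scaffolds than in every spleen, and H2-Oa and Samsn1 lie lower.

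Because the cDC2-like cells of scaffold carried most macrophage genes, the difference was also taken within each type. Of the 98 cDC1-like cells 3 had 2 or more of the 9 macrophage genes, all 3 among the 48 of scaffold and none among the 42 of spleen. On the whole list of 15 macrophage markers, which includes Lyz2 and Spp1, 36.7% of cDC1-like cells held 2 or more. In cDC1-like cells 10 of 503 genes rose in scaffold and none fell by edgeR (4 scaffold and 3 spleen libraries with 5 or more such cells). Of these 10, 6 were called in all gated cells, and the part of macrophage RNA in them was not tested. The 10 genes were Anxa1, Ctsb, Ctsl, Ctss, Lpl, Lyz2, Mmp12, Mndal, Spp1 and the mitochondrial mt-Rnr1. Ctss was higher by 2.07 (SE 0.425, edgeR adjusted p = 0.000139), close to its value in all gated cells. Thinned to 500 UMIs, Ctss was detected in 67.4% of cDC1-like cells of scaffold and 33.3% of spleen, and Lyz2 (lysozyme) in 54.3% and 15.4%.

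Lpl was detected in 9 of 48 cDC1-like cells of scaffold and in none of 42 of spleen, Ctsl in 9 against 1, and Spp1 in 3 against none. In T cells the shares were 2.91% for Lpl, 1.98% for Ctsl and 1.86% for Spp1, at a lower depth. Cxcl2 was detected in no cDC1-like cell of either tissue, and in 24 of 57 cDC2-like cells of scaffold against none of 26 of spleen. Among cDC2-like cells alone 3 genes of 915 rose (Retnla, Spp1 and Cstb) and 3 fell (Ngp, Camp and Ltf), all 6 of them called in all gated cells. The 3 that fell are neutrophil granule genes that were high in 1 library, the tumour-bearing spleen of day 14. Dnase1l3, which the gate used, was detected in 39 of 85 spleen cells, 3 of 114 scaffold cells and 2 of 32 lung cells, in both types of spleen (18 of 42 cDC1-like and 8 of 26 cDC2-like cells).

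Without the 42 cells with macrophage genes, 7 libraries remained (3 of scaffold, 3 of spleen and 1 of lung), and 5 of 869 genes were called between scaffold and spleen, 4 of them called before. Among those 4 was Dnase1l3, a gate gene, whose values helped to choose the cells. Cxcl2 and Lpl kept their call (edgeR adjusted p = 0.000314 and 0.0109). Ctss did not, at 0.83 (SE 0.482, edgeR adjusted p = 0.753), and Apoe turned to -0.71 (edgeR adjusted p = 0.905). Of the 83 called genes 50 could be tested in this smaller set.

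**Figure D5:**
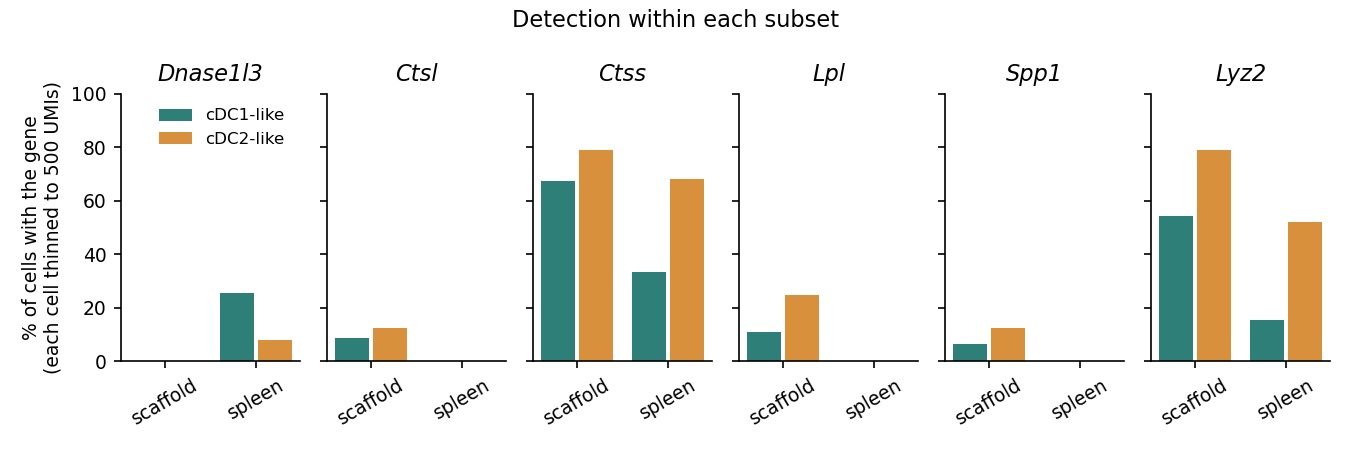
Percentage of cells with each gene after thinning each cell to 500 UMIs (vertical axis), for cDC1-like and cDC2-like cells of scaffold and spleen (horizontal axis). Ctss and Lyz2 are detected more often in cDC1-like cells of scaffold (67.4% and 54.3%) than of spleen (33.3% and 15.4%), and Dnase1l3 only in spleen among the cells shown.

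Against lung, the scaffold cells differed in fewer genes, with 0.409% of those tested called, 7 higher (0.358%) and 1 lower (0.0512%). Mmp12, macrophage elastase, stood at 1792, 1052, 5257, 1044 and 3232 CPM in the scaffolds and at 0 and 31.0 in the lungs, without overlap. It was higher by 6.86 (SE 0.936, edgeR adjusted p = 0.000315), and its ratio on 1138 UMIs against 1 was 213 with a counting interval of 38.2 to 8425. Prdx1, a peroxidase, stood at 1162 to 2736 CPM in the 5 scaffolds and at 335 and 155 in the lungs and was higher by 2.79 (SE 0.576, edgeR adjusted p = 0.0275). Spp1, Cd63, Lpl, Cd9 and Cstb, a cathepsin inhibitor, made up the other 5. The gene lower in scaffold, Hes1, rested on 3 lung cells. The count of 8 fell to 1 without the tumour-bearing scaffold of day 7 or the healthy scaffold of day 7 or 21, and was 21 without the healthy scaffold of day 14. Without the day in the fit edgeR called 1. Without the 42 cells with macrophage genes, which left 1 lung library, 6 of the 8 genes could be tested and none was called; 5 other genes were, 1 higher and 4 lower in scaffold.

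Lung and spleen cells differed in 0.614% of the genes tested, 7 higher (0.358%) and 5 lower (0.256%) in lung, of which Dnase1l3 and Tbc1d4 belong to the gate. Mgl2 stood at 928 and 310 CPM in the lungs and at 0 in the spleens, at least 39.0-fold higher (edgeR adjusted p = 0.000377), and Ccl6 at 2320 and 714 against 32.4 to 444 (log2 2.99, edgeR adjusted p = 0.0317). Neither overlapped. Ppt1, a lysosomal thioesterase and cDC1 marker, stood at 103 and 310 CPM in the lungs and at 2557, 875 and 2142 in the spleens, and was lower by 2.87 in lung (SE 0.575, edgeR adjusted p = 0.0220). cDC1-like cells were also the smaller part in lung, and their part in this value was not tested. Retnla and Lyz1 rested on 1 lung cell each, which held over 99% of their lung UMIs. The count of 12 was 2 without the healthy lung or the tumour-bearing spleen of day 14, and 28 without the tumour-bearing lung of day 7. Without the day in the fit all 12 were tested and edgeR called none.

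Tumour-bearing and healthy mice differed in 6 of the 1955 genes (0.307%), all higher in tumour, and all 6 are known from neutrophils. Ngp, a neutrophil granule protein, stood at 5315 CPM in the tumour-bearing spleen of day 14 and at 27.8 in that of day 7, and at 0 in the other 8 libraries. Camp (cathelicidin) stood at 3935 CPM in that spleen and at 0 to 69.4 elsewhere. S100a8 stood at 15120 CPM there and at 21.5 to 776 elsewhere. A single library was high, and healthy and tumour-bearing libraries overlapped for each of the 6 genes.

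The fit gave Ngp an edgeR adjusted p of 0.000360, with at least 164-fold more in tumour, and Camp 0.00121, Lcn2 0.0251, Ltf 0.0251, 1100001G20Rik (Wfdc21) 0.0126 and S100a8 0.0251. Without the tumour-bearing spleen of day 14 edgeR called none, as without the healthy scaffold of day 21. In either fit only 1 of the 6 genes was tested. Without the healthy spleen of day 14 all 6 were tested and none was called, while 1 other gene was called lower in tumour. With a tumour term in each tissue only the term for scaffold was taken, and it called none. Ngp and Camp had no UMI in any scaffold library. DESeq2 called 1 other gene, lower in tumour. Without the day in the fit edgeR called none, but only 1 of the 6 genes then passed the filter on low counts. In that library 1 gated cell held 43.7% of the 2172 UMIs of these genes, 21.5% of its own 4412 UMIs, and 41 of the 42 gated cells held at least 1. T cells of the same library held 8420 CPM of Ngp and 7747 of Camp, above the gated cells. The summed neutrophil markers reached 31960 CPM in the gated cells of that library and 79 to 2217 in the other 9.

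No list of dendritic cell function held a gene called between tumour-bearing and healthy by edgeR, where 76 of all 1955 genes had an unadjusted p under 0.05. None of 12 class II genes passed (median -0.31), none of 14 class I genes (median -0.43), none of 15 type I interferon genes (median -0.57), none of 13 maturation genes (median 0.21), none of 7 co-stimulatory ligands (median 0.31) and none of 9 cytokines and chemokines (median 0.04). Cd74 ranged from 8080 to 32331 CPM in healthy and from 10972 to 21623 in tumour-bearing libraries and differed by -0.08 (SE 0.395, edgeR adjusted p = 1.00). B2m, the light chain of MHC class I, ranged from 2748 to 5099 CPM in healthy and from 2665 to 3832 in tumour-bearing libraries and differed by -0.37 (SE 0.303, edgeR adjusted p = 0.998). Il1b ranged from 170 to 1192 and from 340 to 2731 CPM and differed by 0.96 (SE 0.382, edgeR adjusted p = 0.998). For scaffold, with 3 healthy and 2 tumour-bearing libraries, a status term was taken from a fit of all 10 libraries with such a term in each tissue. By edgeR it called no gene, and 57 had an unadjusted p under 0.05. The healthy scaffold of day 21 does not enter it, being alone on its day, and so many terms leave little power.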

How the data were processed

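The authors deposited 1 table of unnormalised UMI counts per library, with genes in rows and barcodes in columns; the submitters' processing notes name mm10 and Seurat version 2, and no source used here names the aligner, the annotation or the calling of cells. Per the labels' protocols, each library was made from about 1000 STAMPs, beads that had each caught a cell. Barcodes with 200 or more genes and under 20% mitochondrial UMIs passed (24536 of 26397), and 19761 stayed after shared barcodes were assigned. No doublet caller was run; 9 gated cells held genes of another lineage. The members and gene lists were chosen with earlier results of these data known.

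Counts of gated cells were summed for the 10 libraries with 10 or more and tested with edgeR 4.0.16 (R 4.3.3): quasi-likelihood fit, TMM factors, filterByExpr, terms for tissue, day and status, Benjamini-Hochberg adjustment over 1955 genes, threshold 0.05. The fit left 4 residual degrees of freedom at a biological coefficient of variation of 0.348. The day comes from the labels and serves as the replicate block. Deviations of same-day libraries from their group means correlated at 0.0964 to 0.286, and those of libraries of different days at -0.286 to 0.207. In a group of 2 libraries the deviations mirror each other, so a value for 1 day returns with the opposite sign for the other. Setting the 2 ranges side by side is therefore no test of the block. Named genes were called genes with 20 or more UMIs, up to 12 per direction, and from each list the called and the 4 most abundant members. Of the list symbols 363 matched by symbol, 10 by an older symbol and 2 not at all. A macrophage marker is counted in its list but not reported here. Shares were compared with 2-sided exact tests. Sign-flip tests over pairs of libraries used log2 ratios with 0.5 cells added to each count, as did the permutation test of the tumour effect between scaffold and spleen. Permutation tests within 1 tissue used percentages without that addition and without the pairing by day. The cDC1-like shares were compared by sign-flip tests on differences in percentage points. Intervals are exact binomial (Clopper-Pearson) at 95%, the limit for a count of 0 is 3 counts, and both cover counting error only. Alternatives included other gates, depths, filters, DESeq2 1.42.0 and leaving out libraries. On simulated counts for tumour-bearing against healthy the fit found 69.0% of genes changed by 2 (log2) among 1768 genes and 93.5% of those changed by 4; for scaffold against spleen it found 66.3% and 81.1% among 1583 genes.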

Additional observations from a re-analysis of the deposited data

Results flagged for a closer look

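In percentage points, the share of conventional dendritic cells differed between tumour-bearing and healthy mice in one direction in scaffold and in the other in spleen. In scaffold the tumour-bearing library held less than the healthy one on all 3 days, by -1.194 percentage points at day 7, -0.1119 at day 14 and -2.198 at day 21. In spleen the tumour-bearing library held more on all 3 days, by 0.152 points at day 7, 0.4713 at day 14 and 0.273 at day 21. The last of these is against 0 of 27 healthy cells. With 0.5 cells added to each count, the log2 ratio was negative on average in both tissues, at -1.21 in scaffold and -0.69 in spleen, where 2 of 3 pairs were higher in tumour. On log2 ratios of shares the tumour effect was 0.52 lower in scaffold than in spleen (-0.52), which did not pass an exact permutation test (p = 0.5, smallest possible 0.1). With cells thinned to 500 UMIs it turned to 0.67 higher in scaffold (exact permutation p = 0.7). The healthy spleen of day 21 then held 0 gated cells among 8.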

How the results depend on the processing

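Shares, as log2 ratios. At 500 UMIs per cell tumour against healthy was -1.62, scaffold against lung 1.42 and lung against spleen -2.17, all now past the threshold, and scaffold against spleen turned to -0.75. That last ratio also turned with a stricter gate (-0.23), with 400 or more genes per cell (-0.080) and without cells with macrophage genes (-0.24). Of cells with 3 or more class II UMIs, tumour against healthy was 0.12, with 0.59 in lung and 0.26 in spleen. Of cells with calprotectin genes under 3% of UMIs, it was 0.13 in lung and 0.27 in spleen. Without both day 21 libraries that lost most shared barcodes it was 0.11 in lung and 0.25 in spleen, and 0.81 in spleen with shared barcodes kept. Leaving out 1 library or day gave -1.82 to -0.05 for tumour against healthy, 1.17 to 2.31 for scaffold against lung, 0.09 to 0.37 for scaffold against spleen and -2.10 to -1.08 for lung against spleen. It gave -3.05 to 0.11 for the lung effect and -1.26 to 0.25 for the spleen effect, the upper values without day 21. The cDC1-like share lay between -7.34 and 3.17 points for scaffold against spleen, the latter without the tumour-bearing scaffold or spleen of day 14, and between -16.4 and -2.45 points for tumour against healthy.

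Genes called. For tumour against healthy (6 genes) the count was 10 without cells with macrophage genes, 3 with cells thinned to at most 2000 UMIs, 16 with a looser gate of 1 gene, 3 without cells of mixed lineage, 3 with library totals alone, 1 with DESeq2, 11 with no filter, 0 with libraries of 5 or more gated cells and 0 with a tumour term in each tissue. For scaffold against lung (8 genes) the same settings gave 5, 2, 132 and 2, DESeq2 gave 3, no filter 14, 5 or more cells 0 and the tumour term in each tissue 3. For scaffold against spleen (83 genes) they gave 5 without macrophage genes, 10 in cDC1-like and 6 in cDC2-like cells, 27 thinned, 348 with the looser gate, 25 with DESeq2, 36 with 5 or more cells and 5 with a tumour term in each tissue. For lung against spleen (12 genes) they gave 6 thinned, 39 with the looser gate, 7 with 400 or more genes, 21 without mixed cells, 7 with library totals and 4 with 5 or more cells. Without the day as replicate block the counts were 0, 1, 45 and 0 in this order. With a tumour term in each tissue, the count for tumour against healthy is that of the scaffold term alone. The tissue differences of that fit are those of healthy mice. With libraries of 5 or more gated cells, only 1 of the 6 genes of tumour against healthy was tested. Of scaffold against spleen 73.5% of calls were higher in scaffold, 84.4% without the replicate block and 88.0% with DESeq2.

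Leaving out 1 library gave 0 to 10 genes for tumour against healthy, 1 to 21 for scaffold against lung, 27 to 114 for scaffold against spleen and 2 to 28 for lung against spleen. Without every day 7 library the last 3 gave 4, 34 and 32, and without every day 21 library the 4 comparisons gave 0, 1, 27 and 3. For tumour against healthy the lowest counts were 0 without the tumour-bearing spleen of day 14 and 0 without the healthy scaffold of day 21. Only 1 of the 6 genes was tested without either of them. For scaffold against spleen the lowest were 27 without either of those libraries and the highest 114 without the healthy scaffold of day 14. With a tumour term in each tissue, the term for scaffold was -0.60 for Ngp and -0.57 for Camp. No scaffold library held a UMI of either gene, so both are fitted values at the floor. Ngp was 2.23 for scaffold against spleen in that fit, which compares healthy mice, whose fitted libraries of these tissues held none of its UMIs. Without cells with macrophage genes Apoe turned to -0.71 (scaffold against spleen), and Retnla and Lyz1 to -1.73 and -2.35 (lung against spleen, with 1 lung library left, assumed to vary like the others). Spp1 turned to -2.75 for scaffold against lung without day 7, and Lyz1, lung against spleen, to -1.29 without the healthy lung of day 14, with 8.58 without the tumour-bearing lung of day 7. Leaving out 1 library also moved the number of genes tested, to 878 to 2583 from 1955. That number is set by filterByExpr from the counts and the design of each fit. Which of these moved it was not tested. Gene fits with the stricter gate, with libraries of 20 or more cells and without day 14 were not run, since too few libraries remained. With 10 to 42 cells per library, counts of a few UMIs limit most genes.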

Other observations

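Some genes that set splenic and tissue dendritic cells apart in mice were seen at low depth. Cd8a, carried by cDC1 of spleen, gave 14 UMIs in 9 spleen cells and 2 UMIs in 1 scaffold cell of the libraries fitted, and did not pass (log2 -3.88, SE 1.86, edgeR adjusted p = 0.383). Itgae (CD103), an integrin of tissue cDC1, was detected in 13 cDC1-like cells and in no cDC2-like cell. It is on the cDC1 list that sorted the cells, so this is a description only. Il7r, the interleukin 7 receptor, gave 73 UMIs in 14 scaffold cells and 5 in 3 spleen cells (log2 3.04, SE 0.932, edgeR adjusted p = 0.0710), short of the threshold. Maf, a transcription factor, stood at 309 and 279 CPM in the lungs and at 0, 27.8 and 0 in the spleens, and was called higher in lung (log2 4.25, edgeR adjusted p = 0.0225).

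A few cells carried single genes at high levels. H2-M2, a class Ib gene of the MHC, gave 63 UMIs in 4 spleen cells and 16 UMIs in 2 scaffold cells. Retnla gave 220 UMIs in 2 lung cells and 71 in 3 scaffold cells, and none in spleen. cDC1-like cells made up 30.7% of the gated cells at day 7, 53.1% at day 14 and 34.9% at day 21, over all tissues, which the libraries of those days fill unequally.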
